A study of Homo sapiens with 30 samples.

Results

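The genes described here load peptides onto HLA class I molecules or control their transcription: the regulator NLRC5, the transporter subunits TAP1 and TAP2, the editors TAPBP and TAPBPL, the trimming enzymes ERAP1 and ERAP2, the light chain B2M, and the chaperones CALR and PDIA3. They were taken by symbol as a list of 10 genes, and all 10 were found among the 61471 genes of each deposited table and passed the filter on low values in both lines. RNA was sequenced from U87 and U251, 2 established human glioblastoma cell lines. Each line was sampled without IFN-γ (Untreated), on day 3, 14 and 28 of continuous IFN-γ (named D3, D14 and D28), or with the cytokine withdrawn at day 14 and the cells kept without it until day 28 (D28WO, the washout). The labels put the Untreated libraries at day 3 and the methods at day 0, so D14, D28 and D28WO are compared here with untreated cultures of a younger age. The labels name 3 replicates per group, which the methods call independent culture preparations, and the 13 libraries of U87 used here hold 2 at D3 (replicates 2 and 3) and 2 at D14 (replicates 2 and 3), while all 15 of U251 were used. The methods give the dose as 10 ng/mL, and the labels give 1 µL/mL for D3, D14 and D28 and no treatment for D28WO at collection, with 1 µg/mL in their treatment protocol, so the dose is not settled. Neither line was authenticated by STR profiling according to the methods, and each stands for a single tumour line grown without immune cells.

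Class I molecules show peptides from inside the cell to CD8 T cells. TAP1 and TAP2 form the transporter that moves peptides into the endoplasmic reticulum, where ERAP1 and ERAP2 trim them, and where tapasin (TAPBP), calreticulin (CALR) and the disulfide isomerase ERp57 (PDIA3) hold the empty heavy chain with β2-microglobulin (B2M) next to the transporter. TAPBPL encodes TAPBPR, a tapasin relative that edits peptides away from that complex. NLRC5 is the transactivator of class I genes, induced by IFN-γ, as CIITA is for class II, and loss of these genes is a known route of escape from T cells in tumours.

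Several libraries did not follow their labels in the genes that report an IFN-γ response. In U87, the interferon-induced gene IDO1 was listed at 0 in both libraries labelled D14, as it was in 2 of 3 Untreated libraries (0.239 TPM in the other), and CXCL10 was listed at 0 in all libraries of both groups. GBP1 read 31.7 and 36.6 TPM in the U87 libraries labelled D14 and between 31.3 and 39.6 TPM in Untreated, against 209 and 240.2 TPM at D3. The U87 libraries labelled D28WO, by that label 14 days without cytokine, held GBP1 at 213 to 232 TPM and IDO1 at 135 to 137 TPM, against 244 to 256 and 95.5 to 130.4 TPM at D28. In U251 the D14 libraries were intermediate (GBP1 141 to 156 TPM, between 44.4 to 49.9 in Untreated and 413 to 487 at D3), and at D28WO GBP1 was at 460.1 to 471 TPM but CXCL10 at 80.5 to 101 TPM against 492 to 521 at D28. The U87 libraries labelled D14 thus read as untreated and those labelled D28WO as treated in these genes, and whether these libraries carry the right labels cannot be told from the expression tables used here. Every result on D14 or D28WO below rests on these libraries, and the fits of the other groups were repeated without them.

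The defining markers of glial and mesenchymal tumour cells were present in part. U87 held VIM at 984 to 1459 TPM and CD44 at 471 to 732 TPM, but SOX2 was at or under 0.411 TPM in every library and GFAP at 2.33 to 19.1 TPM. In U251, SOX2 was at 105 to 176 TPM and GFAP at 222 to 1309 TPM. The summed level of the 8 glial and neural markers differed between groups. In U251 it was 3734 to 3807 TPM in Untreated, 1519 to 1858 TPM at D3 and 2124 to 2197 TPM at D28WO. In U87 it was 2077 to 2293 TPM in Untreated and 1720 to 1874 TPM at D28WO. Single markers of U87 went both ways there, with OLIG2 at 22.0 to 32.0 TPM against 4.94 to 9.49 in Untreated. NES was at 19.7 to 28.9 TPM against 38.7 to 43.9. Leukocyte markers summed to 215 to 448 TPM in U87 and 77.2 to 171 TPM in U251, almost all of it CD68, a lysosomal protein. PTPRC stayed at or under 1.47 TPM and CD3E at or under 0.308 TPM. In U87 the leukocyte sum was 311 to 376 TPM in Untreated and 215 to 246 TPM at D28WO. The endothelial sum of U251 was 26.6 to 38.4 TPM in Untreated and 2.45 to 3.46 TPM at D3. Most of this fall was in CDH5, at 25.2 to 31.0 TPM in Untreated and 0.492 to 0.651 TPM at D3. PECAM1 and VWF overlapped between these groups. The part of these shifts in the results below was not tested, and in bulk RNA a change in the share of cells and a change per cell cannot be told apart.

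The promoters of 8 of the 10 genes could be matched in RefSeq (GRCh38.p14, 12 start sites, 250 bases before to 50 bases after each start). They are shown because the letters GAAANNGAA, the core of the interferon-stimulated response element that IRF factors read, were found on either strand in 6 of these 12 promoters, belonging to 6 genes, against 8.11% of 35116 promoters of the same length. Capitals mark the match, overlapping matches are marked as 1 run, and each line is written 5′ to 3′ on the strand of the gene.
B2M, chr15:44711366-44711395, plus strand, match 144 to 130 bases before the start: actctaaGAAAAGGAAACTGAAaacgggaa
TAP1, chr6:32853815-32853844, minus strand, match 133 to 119 bases before the start: ggccgctTTCGATTTCGCTTTCccctaaat
TAP2, chr6:32838778-32838807, minus strand, match 58 to 50 bases before the start: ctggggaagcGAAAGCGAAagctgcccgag
TAPBP, chr6:33314076-33314105, minus strand, match 20 to 6 bases before the start: tttggagGAAAGTGAAAGTGAAaggaggaa
ERAP1, chr5:96807923-96807952, minus strand, match 3 to 11 bases after the start: gggctccactTTCACTTTCggtcctggggg
ERAP2, the second start, chr5:96876460-96876489, plus strand, match 30 to 22 bases before the start: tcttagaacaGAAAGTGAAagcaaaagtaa

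The letters TTCNNNGAA, the pattern of a gamma-activated site, were found in 1 of the 12 promoters, that of the second TAP1 start, against 7.66% of all promoters. They are shown because they are the other letter pattern of IFN-γ responses.
TAP1, the second start, chr6:32852931-32852960, minus strand, match 189 to 181 bases before the start: gtagcgtgggTTCTGGGAAatgtggagcag

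CCAAT, read by NF-Y, stood in 4 of the 12 promoters (34.6% of all promoters), with 4 matches in that of CALR. GGGCGG, the Sp1 box, stood in 7 of the 12 (45% of all promoters). The windows of CALR and TAPBPL held none of the GAAANNGAA letters. A match is a description of the letters and not of a bound factor, and no match says only that the letters are not in this window.

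Most peptide loading genes rose together under IFN-γ in both lines, with TAPBP short of the threshold in U251 and D14 of U87 apart, the chaperones CALR and PDIA3 did not rise in any comparison with Untreated, and the same loading genes stood above Untreated in the libraries labelled D28WO as at D28. Values are TPM, a level per length of transcript that sums to the same total in every library, and changes are differences of log2(TPM + 1) tested with limma over all genes of a line, with a change counted when the Benjamini-Hochberg adjusted p was under 0.05. The median of all genes tested lay above 0 by itself, relative to Untreated, by 0.20 (D3), 0.15 (D14), 0.19 (D28) and 0.25 (D28WO) on the log2 scale in U87 and in the same order by 0.13, 0.10, 0.16 and 0.02 in U251, so a rise of that size is no more than that of the middle gene. The list's median was 0.79, 0.09, 0.82 and 0.93 in U87 and 0.91, 0.50, 1.14 and 1.19 in U251 for the same groups. The tables of the lines were normalized separately, so levels and changes are set side by side and no difference between lines was tested.

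**Figure D1:**
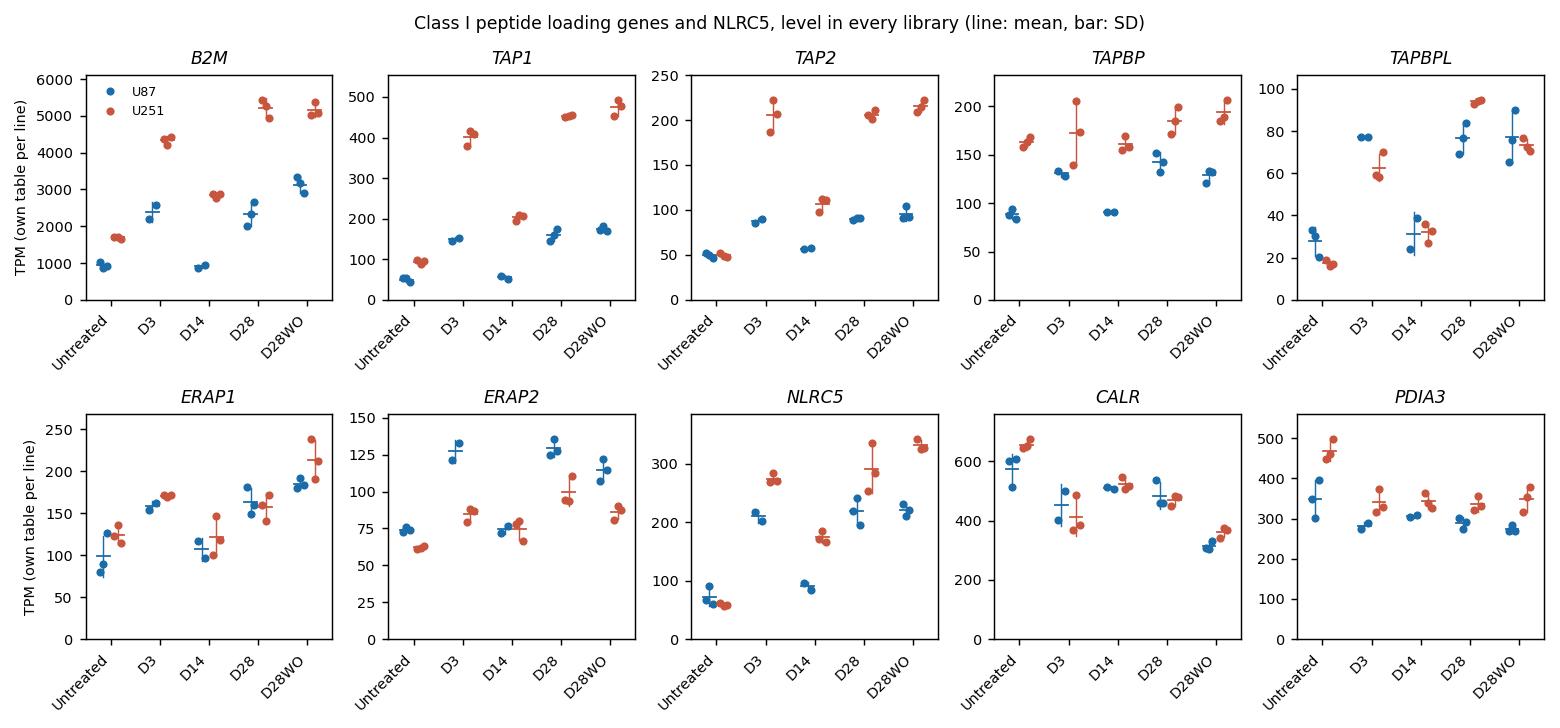
Level (TPM, linear axis from 0) of the 10 genes in every library used, by group, with U87 in blue and U251 in red; the horizontal line is the group mean and the vertical bar its SD (n = 3, and n = 2 at D3 and D14 of U87). NLRC5, TAP1, TAP2, TAPBPL and B2M are high at D3, D28 and D28WO, D14 of U87 sits beside Untreated, and CALR is lowest at D28WO in both lines.

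At D3 of U87, 8 of the 10 genes were higher than in Untreated (all but CALR and PDIA3), where 12.4% of all genes tested were higher, and 4 of them (B2M, TAP1, TAPBPL and NLRC5) also passed the study's limit of a log2 fold change over 1, where 5.85% of all genes did. The same 8 genes were higher at D28 (17.2% of all genes) with the same 4 past the fold limit (6.77%), and again at D28WO (28.6%) with those 4 past it (12.8%). Among lower genes, CALR passed at D3 (4.28% of all genes lower), PDIA3 at D28 (6.55%) and both at D28WO (13.4%). In the U87 libraries labelled D14, limma called 0 of the 10 genes higher (4.14% of all genes) and 0 lower (1.02%), with 2 higher and 0 lower at an unadjusted p under 0.05 (NLRC5 and TAP2), and no other tool was run.

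In U251, 7 genes were higher at D3 (all but TAPBP, CALR and PDIA3), where 24.9% of all genes were, and 5 of them (B2M, TAP1, TAP2, TAPBPL and NLRC5) passed the fold limit (9.72% of all genes). At D14, 6 genes were higher, the 7 without ERAP1 (13.8% of all genes), and TAP1, TAP2 and NLRC5 passed the fold limit (4.72%). The 7 genes of D3 were also the ones higher at D28 (25.9%) and at D28WO (14.3%), each time with the same 5 past the fold limit (11.9% and 4.07%). CALR and PDIA3 were lower at D3 (16.0% of all genes), D14 (7.31%), D28 (14.7%) and D28WO (13.4%), and neither passed the fold limit at any time.

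**Figure D2:**
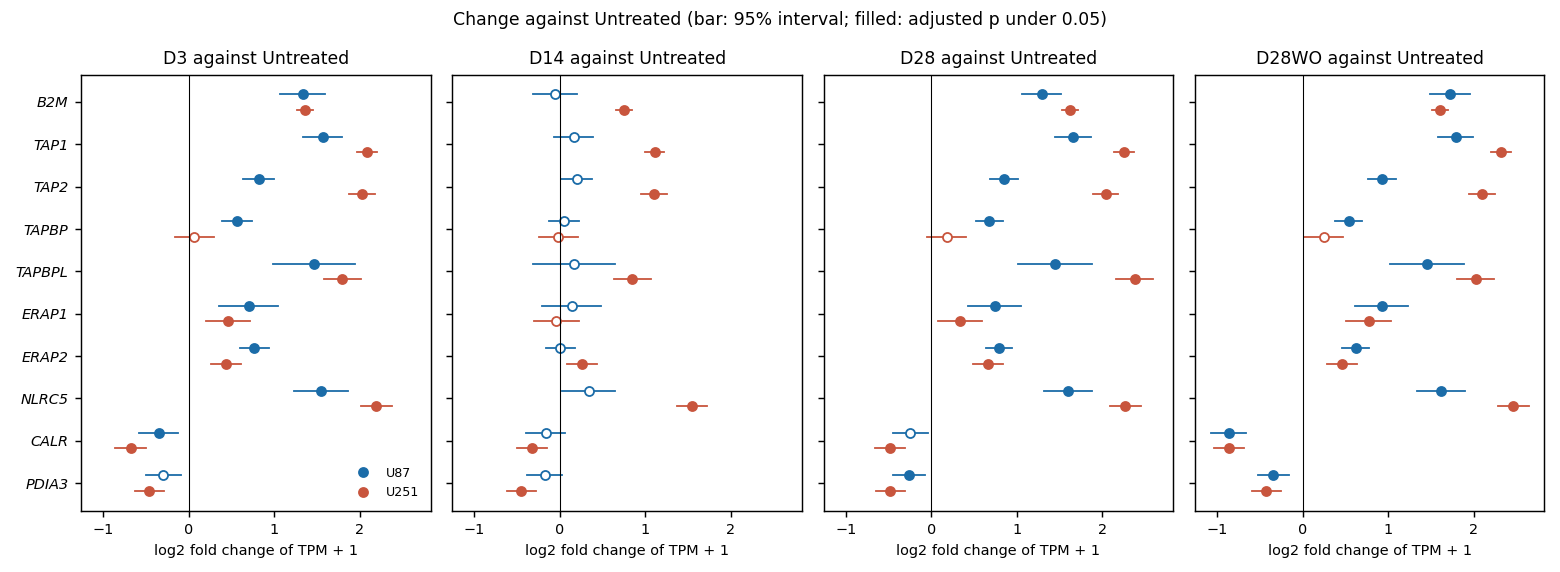
Log2 fold change of TPM + 1 against Untreated for each gene, with 1 panel for each of D3, D14, D28 and D28WO, and with 95% intervals from the limma fit, U87 in blue and U251 in red, filled where the adjusted p is under 0.05. In U87 no point of D14 is filled, and TAPBP is filled only in U87, at D3, D28 and D28WO.

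NLRC5 (chr16:56989485-57083531, plus strand), the regulator, was among the members with the largest changes. In U87 it read 66.9, 90.2 and 60.3 TPM in Untreated, 219 and 202 at D3, 95.7 and 85.0 at D14, 219, 242 and 196 at D28, and 231, 211 and 221 at D28WO. The D3, D28 and D28WO libraries lay above all Untreated ones, and D14 overlapped Untreated. In U251 it read 62.2, 56.5 and 59.1 TPM in Untreated, 269.7, 284 and 270.2 at D3, 171, 186 and 166 at D14, 254, 336 and 285 at D28, and 343, 325 and 327 at D28WO. All D3, D14, D28 and D28WO libraries of U251 lay above Untreated, with D14 between, and D28 overlapped its neighbours D3 and D28WO in the order of group means. The log2 fold change against Untreated in U251 was 2.19 (SE 0.08, adjusted p = 1.5e-10) at D3, 1.54 (SE 0.08) at D14, 2.27 (SE 0.08) at D28 and 2.47 (SE 0.08) at D28WO. In U87 it was 1.54 (SE 0.14, adjusted p = 3.2e-05) at D3, 1.60 (SE 0.13) at D28 and 1.62 (SE 0.13) at D28WO, and 0.33 (95% interval 0.02 to 0.65, adjusted p = 0.20) at D14. Without Untreated replicate 2 of U87, the highest of its group, the D14 value of NLRC5 was 0.50 and passed the threshold (adjusted p = 0.0287).

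TAP1 (chr6:32845209-32853816, minus strand) and TAP2 (chr6:32821833-32838739, minus strand) lie close to each other in the class II region and encode the subunits of the peptide transporter. TAP1 in U87 read 52.9, 52.7 and 44.0 TPM in Untreated, 145 and 154 at D3, 59.8 and 51.8 at D14, 144, 159 and 175 at D28, and 171, 183 and 169.7 at D28WO. D14 overlapped Untreated, and the other 3 groups lay well above both. In U251 TAP1 read 97.7, 88.5 and 96.1 TPM in Untreated, 380.3, 416 and 409.6 at D3, 195, 209 and 207 at D14, 451, 452 and 456 at D28, and 452, 494 and 478 at D28WO. The 5 groups of U251 rank Untreated, D14, D3, D28 and D28WO, and in that order only D28 and D28WO overlap. The log2 fold change of TAP1 was 1.57 (SE 0.11, adjusted p = 2.4e-06) at D3, 1.66 (SE 0.09) at D28 and 1.79 (SE 0.09) at D28WO in U87, and 2.08 (SE 0.05, adjusted p = 2.9e-12), 1.11 (SE 0.05), 2.26 (SE 0.05) and 2.32 (SE 0.05) at D3, D14, D28 and D28WO in U251.

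TAP2 in U87 read 52.1, 50.4 and 46.1 TPM in Untreated, 85.9 and 90.0 at D3, 56.6 and 57.2 at D14, 88.6, 91.2 and 90.6 at D28, and 90.6, 104 and 91.7 at D28WO. Both D14 libraries lay above the 3 Untreated ones, by a difference of 0.20 that missed the threshold (95% interval 0.02 to 0.38, adjusted p = 0.18). The U251 libraries held it at 51.9, 48.7 and 47.6 TPM in Untreated, 186, 223 and 206 at D3, 97.9, 113 and 111 at D14, 205, 202 and 211 at D28, and 209, 214 and 222 at D28WO. The untreated level of TAP2 was near 50 TPM in each line's own table (mean 49.6 ± 3.08 in U87 and 49.4 ± 2.20 in U251, SD, n = 3), and at D28WO it was 95.4 ± 7.38 and 215 ± 6.55 TPM. Its log2 fold changes were 0.82 (SE 0.08, adjusted p = 6.3e-05), 0.85 (SE 0.07) and 0.93 (SE 0.07) at D3, D28 and D28WO in U87, and 2.03 (SE 0.07, adjusted p = 6.2e-11), 1.10 (SE 0.07), 2.04 (SE 0.07) and 2.10 (SE 0.07) at D3, D14, D28 and D28WO in U251.

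The balance between the transporter subunits differed between groups of U87. TAP1 and TAP2 stood at nearly equal TPM in the Untreated libraries (ratio 1.02, 1.05 and 0.955) and at D14 (1.06 and 0.905), and at 1.69 and 1.71 at D3, 1.63, 1.74 and 1.93 at D28, and 1.89, 1.76 and 1.85 at D28WO. D3, D28 and D28WO did not overlap Untreated, and the exact permutation test gave p = 0.1 for each, two-sided, the smallest it can give with these numbers of libraries. In U251 the ratio was 1.91 ± 0.103 (SD, n = 3) in Untreated, 1.96 ± 0.0894 at D3 and 1.91 ± 0.0701 at D14, which overlap, and 2.20 ± 0.0421 at D28 and 2.20 ± 0.0841 at D28WO, which lay above all Untreated libraries (exact permutation p = 0.1 each). Reads of TAP1 overlap PSMB9 and PSMB8-AS1 on the opposite strand in the GENCODE annotation. TAP2 overlaps a gene without a symbol on its own strand. Whether the counting used strand is not given in the sources used here. Reads of TAP1 and TAP2 thus cannot be told apart from those of the genes they overlap.

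**Figure D3:**
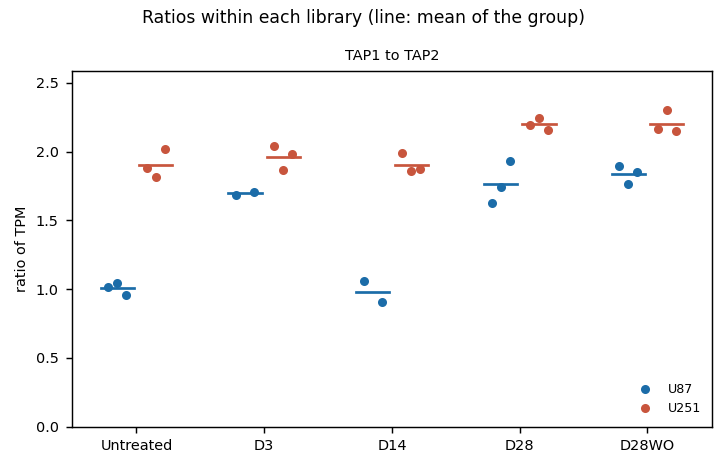
Ratio of TAP1 to TAP2 in TPM within each library, by group, with U87 in blue and U251 in red and the group mean as a line. It was near 1 in Untreated and D14 of U87 and between 1.63 and 1.93 in its other groups.

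TAPBP (chr6:33299694-33314284, minus strand), tapasin, bridges the transporter and the empty class I molecule, and it passed the threshold in U87 and not in U251, a difference between lines that was not tested. In U87 it read 87.5, 94.2 and 83.8 TPM in Untreated, 134 and 128 at D3, 91.2 and 91.0 at D14, 152, 132 and 143 at D28, and 121, 133 and 132 at D28WO. The D3, D28 and D28WO libraries lay above Untreated, with log2 fold changes of 0.56 (SE 0.08, adjusted p = 0.00089), 0.68 (SE 0.07, adjusted p = 6.3e-05) and 0.54 (SE 0.07, adjusted p = 0.00012). In U251 it read 158, 163 and 168 TPM in Untreated, 139, 206 and 174 at D3, 155, 169.7 and 158 at D14, 171, 185 and 199.8 at D28, and 185, 189 and 207 at D28WO. The differences from Untreated in U251 did not pass the threshold, with 95% intervals of -0.16 to 0.30 at D3, -0.25 to 0.21 at D14, -0.05 to 0.41 at D28 and 0.01 to 0.48 at D28WO (adjusted p = 0.11), although all D28 and D28WO libraries lay above all Untreated ones. The D28WO difference of TAPBP passed with array weights (adjusted p = 0.0467) and in a fit of those 2 groups alone (adjusted p = 0.018). The D3 libraries of U251 were the most spread of any group for this gene (SD 33.1 TPM, n = 3).

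TAPBPL (chr12:6451690-6466517, plus strand) encodes the tapasin-related editor and had the lowest untreated level of the list per length. In U87 it ranged from 20.1 to 33.3 TPM in Untreated, with 77.2 and 77.1 TPM at D3, 24.3 and 38.6 at D14, 69.2 to 83.8 at D28 and 65.5 to 89.9 at D28WO, so that 1 library of D14 lay inside the Untreated range and 1 above it. The U251 libraries held it at 18.7, 16.0 and 17.1 TPM in Untreated, 59.4, 58.4 and 70.0 at D3, 36.2, 27.2 and 32.9 at D14, 92.9, 94.4 and 94.9 at D28, and 76.6, 72.6 and 70.8 at D28WO. No neighbouring groups overlapped in U251, and it was the only member of which this held there. Its log2 fold changes were 1.47 (SE 0.22, adjusted p = 0.0012), 1.45 (SE 0.20) and 1.45 (SE 0.20) at D3, D28 and D28WO in U87, and 1.80 (SE 0.10, adjusted p = 9.5e-09), 0.85 (SE 0.10), 2.38 (SE 0.10) and 2.02 (SE 0.10) at D3, D14, D28 and D28WO in U251. The gene overlaps CD27 on its own strand and VAMP1 on the other, and reads shared with them cannot be told apart.

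ERAP1 (chr5:96760810-96808100, minus strand) and ERAP2 (chr5:96875986-96919703, plus strand) are neighbouring aminopeptidase genes that trim peptides to the length class I holds, and both rose by less than 1 on the log2 scale. ERAP2 in U87 was at 74.2 ± 1.71 TPM in Untreated (SD, n = 3), 122 and 133 TPM at D3, 72.0 and 76.8 at D14, 129 ± 5.62 at D28 and 115 ± 7.77 at D28WO. These are log2 fold changes of 0.77 (SE 0.08, adjusted p = 6.5e-05), 0.00 (SE 0.08), 0.79 (SE 0.07) and 0.62 (SE 0.07) at D3, D14, D28 and D28WO. ERAP2 of U251 had a mean of 62.2 ± 1.08 TPM without treatment, 74.8 ± 7.28 at D14, 84.7 ± 4.63 at D3, 86.2 ± 4.73 at D28WO and 99.4 ± 9.45 at D28, and the changes at D3, D14, D28 and D28WO were 0.44 (SE 0.08), 0.26 (SE 0.08), 0.66 (SE 0.08) and 0.46 (SE 0.08). The rise at D14 of U251 passed narrowly (adjusted p = 0.040) and was lost when any of 5 of the 6 libraries compared was left out (adjusted p = 0.074 to 0.145). It was also lost with quantile (0.20, adjusted p = 0.142) or median-ratio scaling (0.17, adjusted p = 0.241). The same held with no filter (adjusted p = 0.0632) and in a fit of those 2 groups alone (adjusted p = 0.0737).

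ERAP1 in U87 read 80.4, 89.3 and 126 TPM in Untreated, 154 and 163 at D3, 117 and 97.2 at D14, 181, 149 and 159.6 at D28, and 179.9, 192 and 184 at D28WO. Its Untreated libraries spread more than those of ERAP2, and the rise of 0.70 (SE 0.16, adjusted p = 0.012) at D3 did not pass without either D3 library (adjusted p = 0.0737 and 0.0779), with median-ratio scaling (0.51, adjusted p = 0.119) or in a fit of those 2 groups alone (adjusted p = 0.083). The rises of 0.74 (SE 0.14, adjusted p = 0.0037) at D28 and 0.93 (SE 0.14, adjusted p = 0.00031) at D28WO held without any single library, but that at D28 fell short with median-ratio scaling (0.55, adjusted p = 0.0527). In U251 it read 123, 136 and 115 TPM in Untreated, 172, 169 and 171 at D3, 101, 146 and 119 at D14, 160.3, 141 and 172 at D28, and 239, 190.3 and 212 at D28WO. The D14 libraries covered the Untreated range, and D28WO lay above every other group. The changes were 0.46 (SE 0.12, adjusted p = 0.0078) at D3 and -0.04 (95% interval -0.30 to 0.22) at D14. They were 0.34 (SE 0.12, adjusted p = 0.039) at D28 and 0.77 (SE 0.12, adjusted p = 0.00027) at D28WO. The D28 change fell short of the threshold without Untreated replicate 1 or 3 or D28 replicate 1 or 3 (adjusted p = 0.0846 to 0.136). It also fell short with median-ratio scaling (0.22, adjusted p = 0.198), array weights (0.27, adjusted p = 0.0669) or no filter (adjusted p = 0.0707). ERAP1 overlaps CAST, an abundant gene on the opposite strand, and reads of the pair cannot be told apart without strand.

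B2M (chr15:44711358-44718851, plus strand), the light chain of every class I molecule, was the most abundant member, ranking between 1 and 20 among all genes in the libraries of U87 and between 1 and 3 in those of U251. In U87 it read 1037, 876 and 930.4 TPM in Untreated, 2199 and 2577 at D3, 871 and 951 at D14, 1999.6, 2328 and 2658 at D28, and 3344, 3169 and 2891 at D28WO. The D28WO libraries were the highest of all groups, and D14 overlapped Untreated. The U251 libraries held it at 1720.2, 1721 and 1646 TPM in Untreated, 4383, 4215 and 4424 at D3, 2879, 2779 and 2887 at D14, 5443, 5277 and 4937 at D28, and 5010.4, 5378 and 5085 at D28WO. D28 and D28WO overlapped, and the other groups were apart from each other. Its log2 fold changes were 1.33 (SE 0.12, adjusted p = 2.1e-05), 1.29 (SE 0.11) and 1.73 (SE 0.11) at D3, D28 and D28WO in U87, and 1.36 (SE 0.04, adjusted p = 3.0e-11), 0.75 (SE 0.04), 1.62 (SE 0.04) and 1.60 (SE 0.04) at D3, D14, D28 and D28WO in U251.

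CALR (chr19:12938578-12944489, plus strand), calreticulin, is a general glycoprotein chaperone of the endoplasmic reticulum as well as a part of the loading complex, and it fell in U251 and, in the libraries labelled D28WO, in U87. In U251 it read 644, 650.2 and 676 TPM in Untreated, 368, 485 and 385 at D3, 547, 508 and 515 at D14, 448, 482 and 479 at D28, and 342, 376 and 369.8 at D28WO. All libraries of the other 4 groups lay below Untreated, with log2 fold changes of -0.68 (SE 0.08, adjusted p = 1.7e-05) at D3, -0.33 (SE 0.08, adjusted p = 0.012) at D14, -0.48 (SE 0.08) at D28 and -0.86 (SE 0.08, adjusted p = 3.1e-06) at D28WO. The D14 fall did not pass under quantile normalization (-0.12, adjusted p = 0.128). In U87 it read 601, 515 and 607 TPM in Untreated, 402 and 502 at D3, 514 and 506 at D14, 536, 459 and 458 at D28, and 307, 306 and 331 at D28WO. D28WO lay below every other library of U87, a change of -0.86 (SE 0.09, adjusted p = 3.0e-05). The change of -0.35 (SE 0.11, adjusted p = 0.043) at D3 of U87 fell to -0.08 under quantile normalization (adjusted p = 0.651) and was lost without D3 replicate 2 (-0.19, adjusted p = 0.369), Untreated replicate 1 (adjusted p = 0.10) or Untreated replicate 3 (adjusted p = 0.122), as well as in the fits without the D14 or the D28WO libraries (adjusted p = 0.0581 and 0.0758). At D28 of U87 CALR differed by -0.24 (SE 0.09, adjusted p = 0.084) and passed without Untreated replicate 2 (adjusted p = 0.0384) or D28 replicate 1 (adjusted p = 0.0458).

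PDIA3 (chr15:43746394-43773279, plus strand) encodes ERp57, which pairs with tapasin in the loading complex and forms disulfides in many glycoproteins. In U251 it was at 447, 461 and 498 TPM in Untreated and between 315 and 379 TPM in all other libraries, with no overlap and with differences between -0.48 and -0.42 (SE 0.08 each) in the 4 groups. In U87 it read 348, 301 and 396 TPM in Untreated, 275 and 289 at D3, 303 and 308 at D14, 301, 273 and 292 at D28, and 269, 283 and 268 at D28WO. The fall of 0.34 (SE 0.08, adjusted p = 0.0071) on the log2 scale at D28WO of U87 shrank to 0.07 under quantile normalization, which sets the distribution of all genes equal (value -0.07, adjusted p = 0.351). The D3 difference of U87, -0.30 (SE 0.09, adjusted p = 0.052), passed without Untreated replicate 2 (adjusted p = 0.00752). At D28 of U87 the change was -0.26 (SE 0.08, adjusted p = 0.043) and fell short without any single library compared other than Untreated replicate 2 (adjusted p = 0.0597 to 0.147) and in the fits without the D14 or the D28WO libraries (adjusted p = 0.0581 and 0.0767). PDIA3 overlaps ELL3 and CATSPER2P1 on the opposite strand.

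The steps between treated groups show the course of the list. From D3 to the libraries labelled D14, 7 of the 10 genes fell in U87 (3.32% of all genes were lower), with log2 changes of -1.39 for B2M, -1.41 for TAP1, -0.62 for TAP2, -0.52 for TAPBP, -1.30 for TAPBPL, -0.77 for ERAP2 and -1.21 for NLRC5, and with ERAP1 at -0.57 (adjusted p = 0.093). In a fit of those 2 groups alone 4 of them passed, and TAP2, TAPBP and TAPBPL did not (adjusted p = 0.0631, 0.0653 and 0.0993). From D14 to D28 the same 7 genes rose in U87 (2.94%), between 0.64 (TAPBP) and 1.50 (TAP1). Without D3 replicate 2 or 3 or D14 replicate 2 the fall of TAPBPL did not pass (adjusted p = 0.0717, 0.0593 and 0.106), its rise from D14 to D28 was lost without D14 replicate 2 (adjusted p = 0.0977), and the fall of TAPBP was lost without D3 replicate 2 (adjusted p = 0.0544). In U251, 6 genes were lower at D14 than at D3 (12.6% of all genes), by 0.61 for B2M, 0.98 for TAP1, 0.93 for TAP2, 0.95 for TAPBPL, 0.50 for ERAP1 and 0.65 for NLRC5, and CALR was higher by 0.35 (12.8% higher), which did not pass in a fit of those 2 groups alone (adjusted p = 0.0575). From D14 to D28 of U251, 7 genes rose (11.3%), of which TAPBPL by 1.53 and TAP1 by 1.15. The rise of ERAP1 (0.38, adjusted p = 0.040) was lost without D14 replicate 1 or 3 or D28 replicate 1 or 3 (adjusted p = 0.0985 to 0.158). It was also lost with median-ratio scaling (adjusted p = 0.0693), no filter (adjusted p = 0.0736) or in a fit of those 2 groups alone (adjusted p = 0.105). Steps to and from D14 share the D14 libraries, so their sizes are not independent of each other.

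**Figure D4:**
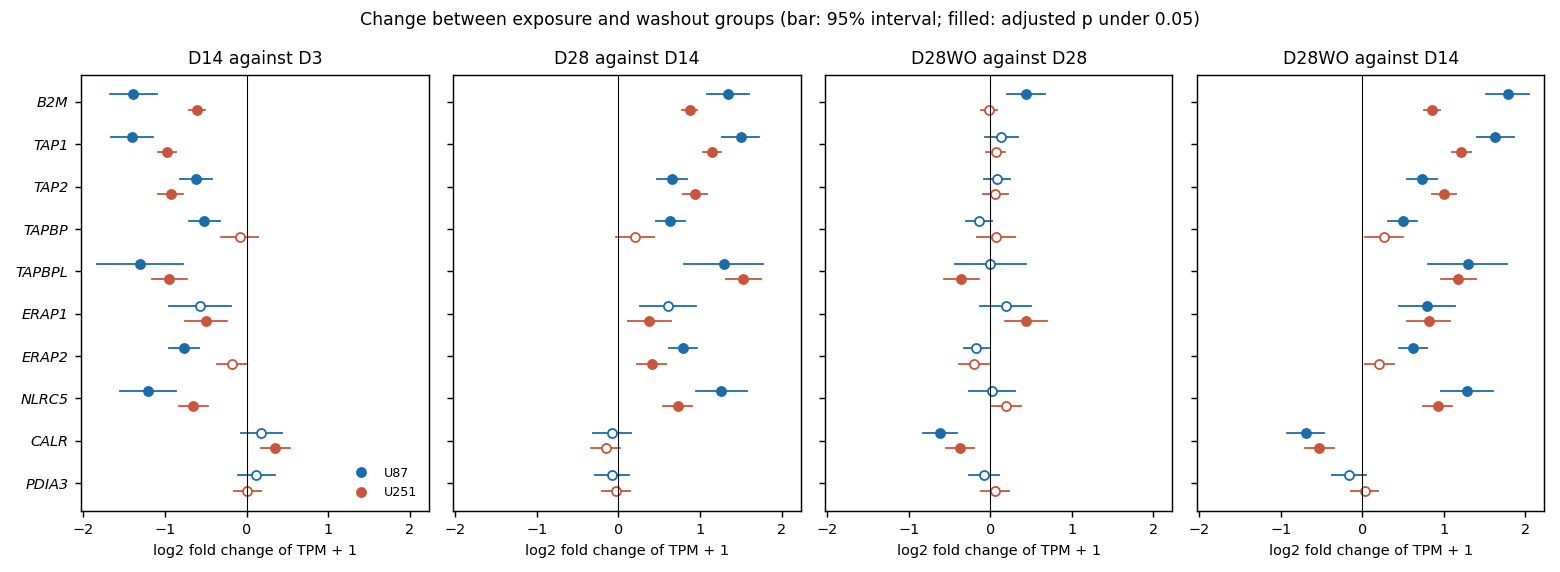
Log2 fold change of TPM + 1 for each gene between D14 and D3, D28 and D14, D28WO and D28, and D28WO and D14, with 95% intervals from the limma fit, U87 in blue and U251 in red, filled where the adjusted p is under 0.05. Most loading genes lie below 0 for D14 against D3 and above 0 for D28 and D28WO against D14, and D28WO against D28 holds filled points for B2M and CALR in U87 and for TAPBPL, ERAP1 and CALR in U251.

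In the libraries labelled D28WO, most loading genes stood above the untreated level and TAP1, TAP2 and NLRC5 did not pass the threshold against D28. For U87 this rests on libraries whose interferon-induced genes, given above, did not follow their label. In U251, GBP1, IDO1 and CXCL10 at D28WO also stood above D14 and Untreated, with IDO1 and CXCL10 below D28. Compared with D28, TAP1 differed by 0.14 (95% interval -0.07 to 0.34) in U87 and 0.07 (-0.05 to 0.18) in U251, TAP2 by 0.08 (-0.08 to 0.24) and 0.06 (-0.09 to 0.21), and NLRC5 by 0.02 (-0.26 to 0.30) and 0.20 (0.02 to 0.37, adjusted p = 0.094). None of these 6 intervals reached lower than -0.26, the bound for NLRC5 in U87. ERAP2 was lower at D28WO than at D28 in both lines at an unadjusted limma p under 0.05, and did not pass the threshold. In U251 the difference of NLRC5 was 0.30 and passed without D28 replicate 2, its highest D28 library (adjusted p = 0.00679). In U87, B2M was higher at D28WO than at D28 by 0.44 (SE 0.11, adjusted p = 0.015), where 9.90% of all genes were higher, and CALR was lower by 0.62 (SE 0.09, adjusted p = 0.0012), where 8.44% were lower. The rise of B2M did not pass without D28WO replicate 1 or 2 (adjusted p = 0.0654 and 0.0509), with median-ratio scaling (0.39, adjusted p = 0.143) or under quantile normalization, which set its difference to 0. In U251, ERAP1 was higher at D28WO by 0.43 (SE 0.12, adjusted p = 0.016; 10.3% of all genes higher), and TAPBPL (-0.36, SE 0.10, adjusted p = 0.017) and CALR (-0.37, SE 0.08, adjusted p = 0.0037) were lower (18.8%). The change of ERAP1 was lost without D28 replicate 2 or D28WO replicate 1 (adjusted p = 0.0731 and 0.072), and that of TAPBPL without D28WO replicate 3 (adjusted p = 0.059).

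Against D14, the group from which the washout cultures started by their description, the D28WO libraries were higher in 8 genes of U87 (14.3% of all genes), between 0.50 (TAPBP) and 1.78 (B2M), and in 6 of U251 (10.6%), between 0.81 (ERAP1) and 1.22 (TAP1). CALR was lower in both lines, by 0.70 in U87 (11.5% of all genes lower) and by 0.53 in U251 (15.8%). GBP1 was higher as well.

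The other genes of the pathway moved with the loading genes to differing degrees. The 5 heavy chain genes HLA-B, HLA-C, HLA-E, HLA-F and HLA-G were higher than Untreated at D3, D28 and D28WO in both lines and at D14 in U251, and at D14 of U87 0 were higher and HLA-B was lower (-0.38, SE 0.10, adjusted p = 0.045). HLA-F, a non-classical heavy chain, led in U87 with 80.0, 58.2 and 51.1 TPM in Untreated and 262, 244 and 267 TPM at D28WO, a change of 2.04 (SE 0.13). In U251, HLA-B went from 426, 447 and 488 TPM to 1567, 1709 and 1609 TPM at D28WO, a change of 1.84 (SE 0.07). HLA genes are near-identical to each other and highly variable between people, so the division of reads among them is uncertain. All 5 immunoproteasome genes, which make the peptides that TAP carries, were higher at D3, D28 and D28WO in both lines, 4 of 5 at D14 of U251 and 0 of 5 at D14 of U87. Over all genes tested, the share higher at D3, D14, D28 and D28WO was 12.4%, 4.14%, 17.2% and 28.6% in U87 and 24.9%, 13.8%, 25.9% and 14.3% in U251. In the same order the median log2 change of the heavy chains was 0.77, -0.20, 0.73 and 0.94 in U87 and 1.53, 0.75, 1.67 and 1.73 in U251, and that of the immunoproteasome genes 0.77, -0.05, 0.77 and 0.95 in U87 and 1.13, 0.64, 1.38 and 1.40 in U251. PSMB9, a catalytic subunit encoded beside TAP1, changed by 1.20, -0.05, 1.27 and 1.30 at D3, D14, D28 and D28WO in U87 and by 1.84, 1.13, 1.66 and 2.06 in U251.

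Of 9 transcription regulators of class I and class II genes, 3, 0, 3 and 7 were higher at D3, D14, D28 and D28WO in U87 and 6, 5, 4 and 5 in U251, and none of them was lower, against 12.4%, 4.14%, 17.2% and 28.6% in U87 and 24.9%, 13.8%, 25.9% and 14.3% in U251 of all genes higher. Their median log2 change was 0.22, 0.19, 0.26 and 0.50 in U87 and 0.27, 0.22, 0.18 and 0.42 in U251, which stood within 0.14 of the median of all genes except at D28WO. CIITA, the class II transactivator, read 2.65, 1.76 and 1.21 TPM in Untreated U251, 137, 126 and 128 at D3, 8.10, 7.48 and 6.85 at D14, and 109, 101 and 95.9 at D28WO. Its D14 libraries lay above all Untreated and below all D3 ones, closer to Untreated in TPM. Those of NLRC5, at 166 to 186 TPM against 59.2 ± 2.85 in Untreated and 275 ± 8.17 at D3, also lay between the groups. In U87, CIITA was at 50.8, 47.1 and 32.9 TPM without treatment and at 191 to 192 TPM at D28WO. IRF1, an interferon-induced transcription factor, was at 288, 321 and 292 TPM at D14 in U251, against 514, 721 and 533 at D3 and 137, 142 and 145 in Untreated, so that the D14 libraries lay between the groups. The NF-Y subunits NFYB and NFYC in U87 and NFYA in U251, and RFXAP in U251, had the lowest signed mean changes of the list in their line, with single values all within 0.32 of 0, and of these NFYB at D28WO passed (0.32, SE 0.11, adjusted p = 0.042).

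CALR and PDIA3 moved in the same direction as other chaperones and folding enzymes of the endoplasmic reticulum. Of 10 such genes, 6, 1, 6 and 7 were lower at D3, D14, D28 and D28WO in U87 and 7, 5, 7 and 8 in U251, against 4.28%, 1.02%, 6.55% and 13.4% in U87 and 16.0%, 7.31%, 14.7% and 13.4% in U251 of all genes lower. Their median log2 change was -0.31, -0.21, -0.31 and -0.33 in U87 and -0.43, -0.20, -0.33 and -0.34 in U251, and 2, at D28WO of U87, were higher, HYOU1 (0.28, SE 0.07, adjusted p = 0.0085) and HSPA5 (0.41, adjusted p = 0.0038), the latter named after its value was seen. HSP90B1, the endoplasmic HSP90, read 627, 637 and 712 TPM in Untreated U251 and 335, 333 and 346 TPM at D28, a change of -0.96 (SE 0.08). PDIA4, a disulfide isomerase like PDIA3, changed by -0.73 (SE 0.07) at D3 of U251 and by -0.48 (SE 0.10, adjusted p = 0.0088) at D3 of U87. SDF2L1 in U87 fell from 88.5, 81.9 and 78.4 TPM to 35.1, 40.1 and 45.3 TPM at D28WO. CANX, calnexin, which holds class I heavy chains before CALR does, was lower in U87 at D3 (-0.32, adjusted p = 0.038), D14 (-0.41, adjusted p = 0.035), D28 (-0.31, adjusted p = 0.021) and D28WO (-0.28, adjusted p = 0.021). In U251 it was lower at D28 (-0.31, SE 0.07, adjusted p = 0.0020) and differed by 0.14 (SE 0.07, adjusted p = 0.14) at D28WO.

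Among 8 peptidases that act on peptides outside the loading complex, 1, 0, 2 and 3 were higher and 0, 0, 2 and 3 lower at D3, D14, D28 and D28WO in U87, and 2, 2, 2 and 1 higher and 1, 0, 2 and 1 lower in U251. Over all genes tested, the shares higher were 12.4%, 4.14%, 17.2% and 28.6% in U87 and 24.9%, 13.8%, 25.9% and 14.3% in U251 and the shares lower 4.28%, 1.02%, 6.55% and 13.4% in U87 and 16.0%, 7.31%, 14.7% and 13.4% in U251. The counts higher are near those of all genes, and the counts lower in U87 at D28 and D28WO are above them, at 2 and 3 genes. The list's median log2 change lay between -0.10 and 0.15 in the 8 comparisons. LAP3, a cytosolic leucine aminopeptidase, rose by 1.02, 1.13 and 1.03 at D3, D28 and D28WO in U87 and by 1.79, 0.98, 1.80 and 1.91 at D3, D14, D28 and D28WO in U251. BLMH, bleomycin hydrolase, was lower at D28WO of U87 (-0.37, SE 0.10, adjusted p = 0.013) and at D28 of U251 (-0.74, SE 0.08).

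The genes whose levels ran most like NLRC5 were found by Pearson correlation of log2(TPM + 1) over all genes tested. Over the 13 libraries of U87 they were ZNFX1 (r = 0.993), IFI27, MMAA, SLAMF8 and TNFRSF14 (r = 0.987), and over the 15 of U251 STAT2 (r = 0.994), BATF2, IFIH1, IFIT3 and PARP12 (r = 0.989). For TAP1 they were GBP1P1 (r = 0.993), FBXO6, IFI27, CIITA and APOL1 in U87, and GBP4 (r = 0.996), GBP1, TAP2, ETV7 and B2M (r = 0.993) in U251. Among the members, NLRC5 ran closest to TAP1 in U87 (r = 0.976) and to TAP2 in U251 (r = 0.982), and least closely, of those that rose, to ERAP1 (r = 0.863 and 0.683), with TAPBP in U251 at r = 0.484. CALR and PDIA3 ran against it (r = -0.695 and -0.854 in U87, -0.874 and -0.830 in U251). These points share the groups and the libraries, so a high r describes a common order of the groups and carries no p.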

How the data were processed

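The 10 genes, the gene lists and the tests were chosen with earlier results of these data known. The authors checked reads with FastQC, trimmed them with Trim Galore, aligned them to GRCh38 with STAR and counted them with featureCounts. They deposited TPM, 1 table per line, each library summing to the same total. How TPM was made and whether strand was used are not given in the sources used here. TPM keeps no depth, which the methods put at a minimum of 50 M reads. Genes above 0 numbered 24223 to 28649 in U87 and 24450 to 30246 in U251. 2 columns of the U87 table share a name and were used in no step. Genes averaging 0.5 TPM or more (22918 in U87, 23667 in U251) were tested on log2(TPM + 1) with limma 3.58.1 (R 4.3.3, lmFit, eBayes with trend), all 5 groups of a line in 1 fit, adjusted by Benjamini-Hochberg over all genes per comparison. The code was tested on simulated data. The ratio of TAP1 to TAP2 used exact permutation tests (Python 3.11.15). Some genes of the lists, and results that need them, are not reported here. All members were named; from each other list, at most 4 genes by mean change (2 highest, 2 lowest), and for likeness 5 genes per reference. HSPA5 was named outside this rule. Same-numbered replicates did not deviate together (correlations -0.058 to 0.0472 in U87 and -0.0375 to 0.048 in U251), so numbers were not treated as pairs. Promoters are from RefSeq; those of NLRC5 and PDIA3 were not matched. Alternatives were another pseudocount (0.1), other filters, quantile and median-ratio scaling, array weights, a replicate block, 2-group fits and leaving out libraries.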

Additional observations from a re-analysis of the deposited data

How the results depend on the processing

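Over both lines and 8 comparisons, 112 changes of single members passed the threshold, 92 of them under every alternative, 20 fell short under at least 1, and 0 reversed. The fit with the replicate number as a block kept 109 of 112 and lost ERAP2 at D14 and ERAP1 at D28 against Untreated and against D14, all in U251 (adjusted p = 0.0507, 0.059 and 0.0613). Leaving out the D14 libraries kept 58 of 60 changes and leaving out the D28WO libraries 69 of 72, both settings chosen after seeing the data. Quantile normalization gave B2M a difference of 0 wherever it ranked first in every library, by construction, which ended its change in 4 comparisons that do not involve Untreated, among them D28WO against D28 in U87 (count of higher members 0, also 0 under median-ratio scaling). With the fold limit added, the counts of higher members in U87 were 4 at D3, D28 and D28WO against Untreated and 4 at D28 and D28WO against D14, with 4 lower at D14 against D3; in U251 they were 5, down from 7, at D3, D28 and D28WO against Untreated, 3 at D14 against Untreated, 2 at D28 against D14 and 3 at D28WO against D14; every other count became 0 or was 0 already. The single lower member of U87 at D3 (CALR) became 0 with no filter, quantile scaling, 2-group fits or without the D14 or D28WO libraries, and 2 with a pseudocount of 0.1, a filter at 1 TPM or median-ratio scaling; that at D28 (PDIA3) became 0 with no filter, quantile scaling, 2-group fits or without those libraries, and 2 under median-ratio scaling. Leaving out 1 library each gave 0 to 2 for both, 0 to 1 for U87 at D14 (higher), 0 to 1 for U87 (B2M) and 0 to 1 for U251 (ERAP1) at D28WO against D28 (higher), and 1 to 2 lower there in U251. Quantile scaling left 1 lower member at D28WO in U87 (CALR) and 1 at D14 in U251 (PDIA3, with CALR lost). The 2-group fit called 4 lower at D14 against D3 in U87 and 0 higher in U251, and median-ratio scaling 2 higher at D28WO against D28 in U251. The cause was not tested. A ratio whose difference was near 0 changed sign without single libraries: log2 TAP1 to TAP2 at D14 reached 0.072 in U87 (lowest value -0.151), and ranged from -0.033 to 0.043 in U251. With 2 or 3 libraries a group and no depth in TPM, small differences of low genes are limited by the spread between libraries.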
